A study of Mus musculus with 20 samples.

Results

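Late-onset Alzheimer's disease is associated with common variants near a set of genes found by genome-wide association. The mouse orthologues of 10 of them, other than Apoe and Trem2, were followed through the cortex of aged APOE4 mice on a control diet (CD) or a ketogenic diet (KD). These were Bin1, Picalm, Sorl1, Abca7, Cd33, Inpp5d, Plcg2, Clu, Ptk2b and Cd2ap, chosen by name from the 23413 genes counted. All 10 were counted in each of the 20 libraries and all 10 passed the filter on low counts. The thresholds were those of the study, a false discovery rate (FDR) of 0.1 and a 1.5-fold change. At these, 0 of the 10 were called between diets in females, in males or over both sexes. Of all 15660 genes tested, 0.0447%, 0% and 0.268% were called, so that 0 of 10 does not set these genes apart. The fit used here had a term for the run of libraries, edgeR's quasi-likelihood test and no RUVg step, which the study used for unwanted variation. It called 7 genes in females and 0 in males. The study reported far more in each sex at the same thresholds, and the cause of this gap was not tested. Sorl1 had the largest diet difference, with a lower level on KD in females (log2 fold change −0.60, SE 0.205), and the microglial genes Plcg2, Cd33 and Inpp5d had the largest differences in the other direction, also in females.

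All mice carried the human APOE4 coding region in place of mouse Apoe (an Apoe tm1.1(APOE*4)Adiuj allele on a B6(SJL) background), so no group without APOE4 stands beside them. They were housed singly, were given CD or KD in equal calories for 12 months from the age of 10 months, and were killed after a fast at 22 months. Cortex was taken from 9 females, of which 5 were on CD and 4 on KD, and from 11 males, of which 5 were on CD and 6 on KD, and each mouse gave 1 stranded total RNA library. Mice are named by their animal numbers. The libraries carry 2 runs of library numbers, called series here, of 10 libraries each. Every group has libraries in both.

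Totals were 21015275 to 29109990 counts in series 1 and 12207161 to 17697342 in series 2. No 2 libraries of a group were copies, with a chi-square per degree of freedom of 7.25 to 115 over the 41 pairs. Mouse Apoe was between 1.33 and 3.34 CPM (reads of a gene when a library is set to 1000000 counts) in every library. Xist was at 319 to 1364 CPM in females and at most 7.59 CPM in males, and Ddx3y was at most 1.64 CPM in 8 females, at 14.0 CPM in CD female E228 and at 164 to 241 CPM in males. Markers of cortical excitatory neurons were present throughout, led by Camk2a (mean 628 CPM) and Slc17a7 (354 CPM), and none of the 14 was at 0. The summed level of these 14 genes was nevertheless lower in CD female E249 and KD females E61, E68 and E207 than in the other 16 libraries, as described with the marker scores, while 18 markers of striatal spiny neurons, led by Pde10a (247 CPM) and Scn4b (208 CPM), were high in E61, E68, E207 and KD male E59. Choroid plexus markers, led by Enpp2 and Ttr, were at a summed 3966 CPM in KD male E59, against at most 545 CPM in the libraries of each other group. These libraries are named below wherever a result on the genes followed here rests on them.

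The products of these genes meet at a few places in the cell. SORL1 is a sorting receptor that carries the amyloid precursor protein away from the compartments where it is cleaved, and PICALM, BIN1 and CD2AP act in clathrin-mediated endocytosis, membrane curvature and the link of membranes to actin. ABCA7 moves lipids across membranes and clusterin, the product of Clu, is a secreted chaperone and lipoprotein component made largely by astrocytes. CD33, INPP5D (SHIP1) and PLCG2 are signalling proteins that in brain are found mainly in microglia, the first as a sialic acid receptor, the second as a lipid phosphatase and the third as a phospholipase downstream of TREM2. PTK2B (PYK2) is a calcium-responsive tyrosine kinase of neurons and myeloid cells.

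Promoter sequences are shown for Inpp5d, Cd33 and Plcg2, each of which followed a score of microglial markers described below, and for Sorl1, which had the largest diet difference. Each is the RefSeq GRCm38.p6 window around a transcript start, read 5′ to 3′ on the strand of the gene. Capitals mark GAGGAA, the core of the binding motif of the myeloid factor PU.1, and TGACG, the shortened form of the cAMP response element bound by CREB, on either strand (TTCCTC and CGTCA when on the other strand).
Inpp5d, chr1:87620062-87620361 (plus): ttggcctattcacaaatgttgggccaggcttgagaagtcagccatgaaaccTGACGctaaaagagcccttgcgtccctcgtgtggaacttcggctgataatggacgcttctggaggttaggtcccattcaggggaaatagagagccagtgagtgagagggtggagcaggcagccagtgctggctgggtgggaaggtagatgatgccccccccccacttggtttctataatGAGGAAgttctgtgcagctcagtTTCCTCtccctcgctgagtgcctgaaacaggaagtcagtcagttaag
Cd33, chr7:43533122-43533421 (minus): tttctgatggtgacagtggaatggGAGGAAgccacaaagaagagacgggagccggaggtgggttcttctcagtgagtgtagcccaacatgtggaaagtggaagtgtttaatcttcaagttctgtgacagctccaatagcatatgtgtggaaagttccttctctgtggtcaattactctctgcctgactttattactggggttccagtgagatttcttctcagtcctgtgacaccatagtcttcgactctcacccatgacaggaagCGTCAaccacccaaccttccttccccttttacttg
Plcg2, chr8:117498025-117498324 (plus): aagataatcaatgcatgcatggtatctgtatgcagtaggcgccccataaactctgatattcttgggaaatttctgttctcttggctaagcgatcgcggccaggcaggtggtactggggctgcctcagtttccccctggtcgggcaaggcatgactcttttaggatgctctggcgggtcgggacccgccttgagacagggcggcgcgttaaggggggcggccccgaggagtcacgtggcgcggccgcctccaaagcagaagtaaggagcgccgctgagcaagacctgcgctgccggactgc
Sorl1, chr9:42124248-42124547 (minus): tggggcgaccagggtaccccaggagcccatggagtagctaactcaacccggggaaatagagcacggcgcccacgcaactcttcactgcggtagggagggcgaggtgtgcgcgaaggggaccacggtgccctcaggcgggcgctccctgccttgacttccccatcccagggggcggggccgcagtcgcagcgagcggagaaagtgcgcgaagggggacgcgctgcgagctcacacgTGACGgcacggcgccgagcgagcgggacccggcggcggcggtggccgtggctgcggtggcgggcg
The Inpp5d window held GAGGAA 20 bases before the start and, on the other strand, 4 bases after it, and TGACG 199 bases before it. The Cd33 window, whose start lies inside the gene as GENCODE draws it, held GAGGAA 226 bases before the start and TGACG on the other strand 16 bases after it. The Plcg2 window held neither set of letters, and the printed Sorl1 window held only TGACG, 15 bases before the start. Guanine and cytosine made up 72.3% of the printed Sorl1 window, 60% of that of Plcg2, 53.7% of that of Inpp5d and 47.7% of that of Cd33. Another window of Sorl1, chr9:42077164-42077463, not printed, held neither set of letters and was 44% guanine and cytosine. Of 32851 promoter windows of this length, 28.3% held GAGGAA and 20.8% held TGACG, while the full element TGACGTCA was in 1.79% and in none of the windows of these genes. The window of Picalm, not printed, also held both sets of letters, and those of Abca7 and Cd2ap held neither. A match of letters is not evidence of binding.

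In the mouse genome (GRCm38, GENCODE M21) each of the 10 is a protein-coding gene. Bin1 lies on chromosome 18 from 32377230 to 32435737 on the plus strand, and an antisense noncoding gene that is itself in the files, A830052D11Rik, overlaps it. Picalm is on chromosome 7 from 90130213 to 90213465 (plus) and Cd33 on the same chromosome from 43524216 to 43544428 (minus). Sorl1 is on chromosome 9 from 41964720 to 42124297 (minus) and is overlapped by the antisense gene Gm16214. Abca7 is on chromosome 10 from 79996494 to 80015572 (plus), Inpp5d on chromosome 1 from 87620312 to 87720507 (plus) and Plcg2 on chromosome 8 from 117498291 to 117635142 (plus). Clu, from 65968483 to 65981547 (plus), and Ptk2b, from 66153257 to 66281052 (minus), lie close together on chromosome 14. Cd2ap is on chromosome 17 from 42792951 to 42876665 (minus). Which strand was counted is not given in the sources used here, so reads of Bin1 and Sorl1 and of their antisense partners cannot be told apart. Picalm is also overlapped on its own strand by Gm45220, Gm45221, Gm45222 and Gm45223, and Plcg2 on the other strand by the miRNA gene Gm27361. None of these is among the genes counted.

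Levels of the 10 genes were compared per kilobase (kb) of annotated exon. Clu was the highest in all 20 libraries, with a mean of 190.7 CPM per kb (SD 50.2, n = 20), and Ptk2b was second in all 20, at 75.6 (SD 13.3). Bin1 (43.4, SD 11.4), Picalm (38.1, SD 4.66) and Sorl1 (31.9, SD 8.23) followed and exchanged places between libraries. Bin1 was above Picalm in 13 of 20 libraries and Picalm above Sorl1 in 15 of 20, and their order was not tested. Cd2ap was sixth in every library at 8.93 CPM per kb (SD 2.70). Inpp5d (2.70, SD 0.581) was above Abca7 (2.09, SD 0.769) in 17 of 20 libraries, and Plcg2 (1.08, SD 0.361) above Cd33 (0.654, SD 0.131) in 19 of 20. The genes found mainly in microglia and Abca7 thus made up the low end of the range. Their depth was correspondingly small, with 23 to 226 counts of Plcg2 and 42 to 128 of Cd33 per library, against 2460 to 16118 of Clu.

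**Figure D1:**
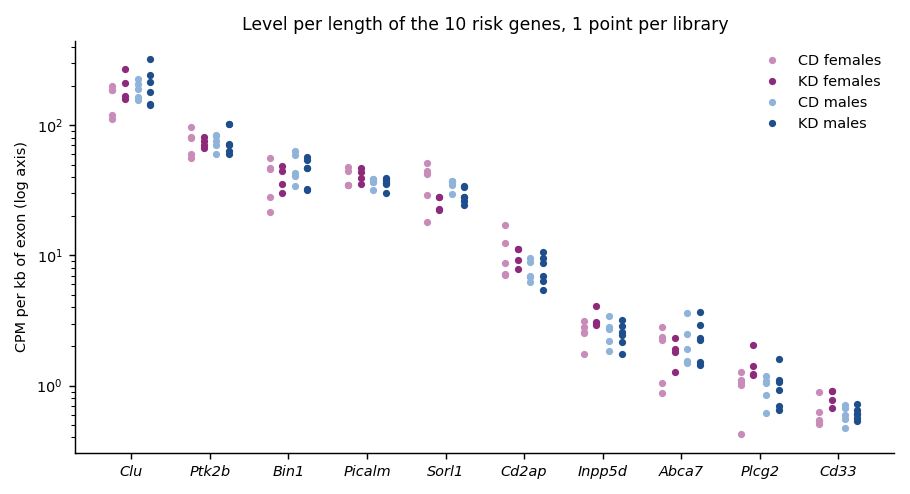
Level of each risk gene in CPM per kb of exon (log axis), 1 point per library, coloured by diet and sex. Clu and Ptk2b lie at the top, from 111 CPM per kb upward for Clu, and Plcg2 and Cd33 lie at the bottom.

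Sorl1 was the only 1 of the 10 with an unadjusted p under 0.05 between diets in females. In CD females it was at 455 CPM in E62, 478 in E67, 554 in E228, 309.7 in E265 and 193 in E249. In KD females it was at 245 CPM in E61, 240.5 in E68, 301 in E207 and 303 in E227. The KD females lay in a narrow band, below 4 of the 5 CD females and above the fifth, E249, so the groups overlapped. The log2 fold change was −0.60 (SE 0.205, 95% interval −1.03 to −0.17), with an FDR of 0.255 in edgeR's quasi-likelihood test, which does not pass. An unadjusted p under 0.05 was reached by 11.4% of the 15660 genes tested in females, and the FDR and fold thresholds by 0.0447%.

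The Sorl1 call in females turned on few libraries. With CD female E249 left out, the estimate was −0.77 with an FDR of 0.0109, which passes, in a fit that called 6.66% of genes. In series 1 alone, with 2 CD and 2 KD females, it was −0.98 and passed (FDR 0.0143, 5.42% of genes called), and in series 2 alone, with 3 CD and 2 KD females, it was −0.29 (FDR 0.839, 0 genes called). Without E228, the CD female with the highest Sorl1 level and with reads of the Y-linked gene, it was −0.43 (FDR 0.432). The marker genes of cortical excitatory neurons went in the same direction in these mice. In females 13 of 14 had a negative fold change, 8 of them with an unadjusted p under 0.05 and 0 called, and their median log2 fold change was −0.80 against 0.01 over all genes tested. Their summed level ranged from 1226 to 2588 CPM in CD females (median 2360.5) and from 1308 to 2120 CPM in KD females (median 1452). Markers of striatal spiny neurons went the other way, with 18 of 18 higher in KD females, 12 of them at an unadjusted p under 0.05 and 0 called, and a median log2 fold change of 1.83. Of the 4 KD females, 3 (E61, E68 and E207) were the libraries of this sex with low cortical and high striatal scores, and these 3 held Sorl1 levels of 240.5 to 301 CPM. With the striatal score as a covariate the Sorl1 log2 fold change was −0.56 (SE 0.251, FDR 0.884). With the cortical excitatory neuron score as a covariate the Sorl1 log2 fold change was −0.14 (SE 0.189, FDR 0.713), an alternative added after the data had been seen. Because 3 of the 4 KD females stood apart on both scores, each score overlapped with diet in females. On the cortical score only E249 of the CD females lay with them. A fit with either score therefore cannot tell the score from diet in females. In bulk tissue, fewer cells of a type, less RNA per cell and the brain regions held by the sampled piece cannot be told apart, and none of these was tested.

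In males Sorl1 was at 317 to 402 CPM in the 5 CD mice (396 in E51, 399 in E58, 402 in E66, 317 in E251 and 371 in E264) and at 263, 301 and 364 CPM as the lowest, median and highest of the 6 KD mice. The groups overlapped, the KD mice E59 and E213 lying within the CD range. The log2 fold change was −0.28 (SE 0.183, 95% interval −0.66 to 0.10, FDR 0.9998) in edgeR's quasi-likelihood test. An exact two-sided permutation test of log2 CPM gave an unadjusted p = 0.0325 in males (462 splits) and 0.183 in females (126 splits), and this was the lowest p of the 20 such tests of the 10 genes. Averaged over both sexes the log2 fold change was −0.44 (SE 0.137, FDR 0.158 in edgeR), where 13.9% of all genes had an unadjusted p under 0.05 and 0.268% were called. The diet effect in females minus that in males was −0.32 (SE 0.274, FDR 0.9999 in edgeR), so the size of the effect was not shown to differ between sexes.

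**Figure D2:**
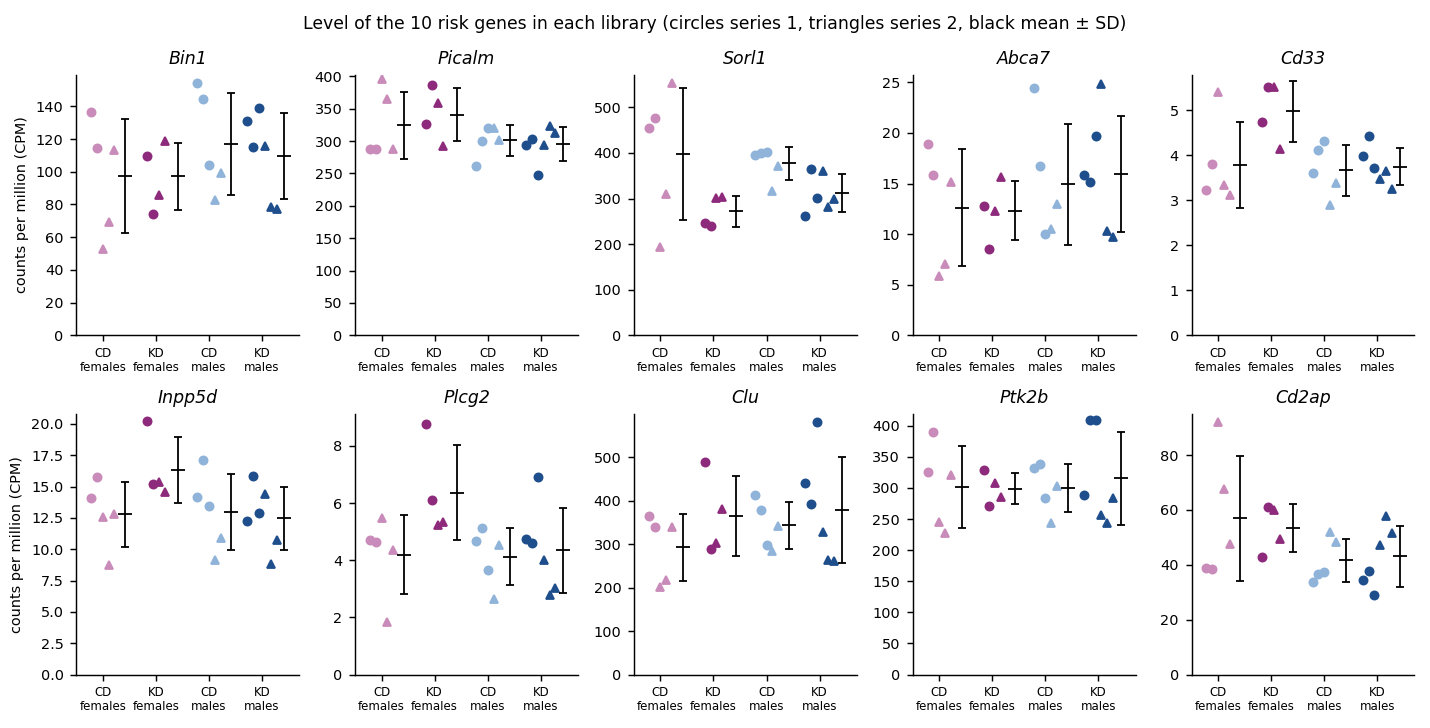
CPM of each risk gene in every library, by diet and sex, each axis starting at 0. Circles are series 1, triangles are series 2, and the black mark beside each group is its mean ± SD. Sorl1 was at 240.5 to 303 CPM in KD females and at 193 to 554 CPM in CD females.

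Among the genes of endocytosis, Picalm, a clathrin assembly adaptor, varied least. It was at 287 CPM in E62 and in E67, 288 in E228, 364 in E265 and 395 in E249 among CD females, and at 326 in E61, 387 in E68, 359 in E207 and 293 in E227 among KD females. The groups overlapped fully, and the log2 fold change was 0.03 (SE 0.125) in females and −0.05 (SE 0.113) in males. The 95% interval in males, −0.29 to 0.18, leaves room for less than a 1.5-fold difference. Bin1, an amphiphysin-family protein that bends membranes, was at 137, 114, 113, 69.0 and 52.7 CPM in CD females E62, E67, E228, E265 and E249. It was at 109.7 in E61, 74.3 in E68, 86.0 in E207 and 119 in E227, and the log2 fold change was −0.04 (SE 0.203) in females and −0.07 (SE 0.183) in males. Cd2ap, an adaptor between membrane receptors and actin, ran the other way across the same CD females, with 38.7 CPM in E62, 38.4 in E67, 47.7 in E228, 67.7 in E265 and 91.9 in E249. In KD females it was between 42.8 and 60.96 CPM, and the log2 fold change was −0.03 (SE 0.184) in females and −0.03 (SE 0.165) in males. In CD males Bin1 was at 82.9 to 154 CPM, Picalm at 261 to 320.5 and Cd2ap at 33.8 to 51.9. In KD males the lowest, median and highest were 77.1, 115 and 139 CPM for Bin1, 247, 299 and 324 for Picalm, and 29.1, 42.6 and 57.7 for Cd2ap.

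The lipid and chaperone genes had no called difference either. Clu was at 364 CPM in E62, 339.5 in E67, 339 in E228, 216 in E265 and 202 in E249 among CD females, and at 489 in E61, 288 in E68, 303 in E207 and 380.1 in E227 among KD females. The 2 groups overlapped, and the log2 fold change was 0.24 (SE 0.169, 95% interval −0.11 to 0.59) in females. In males Clu was at 285 to 414 CPM on CD and at 261, 361 and 580.4 CPM (lowest, median and highest) on KD, with a log2 fold change of 0.13 (SE 0.153). Averaged over both sexes it was 0.18 (SE 0.114, FDR 0.509). The highest Clu level was in KD male E64 and the lowest in CD female E249. Abca7, the least precise of the 10, was at 18.9, 15.9, 15.2, 7.07 and 5.90 CPM in CD females E62, E67, E228, E265 and E249, and at 12.8, 8.57, 12.3 and 15.6 CPM in KD females E61, E68, E207 and E227. Its log2 fold change was −0.07 (SE 0.320, 95% interval −0.74 to 0.60) in females and 0.12 (SE 0.287) in males, and the interval in females spans a 1.5-fold difference in either direction. Ptk2b, the kinase, was at 226.97 to 390.2 CPM in CD females and 272 to 329.5 in KD females, with a log2 fold change of −0.08 (SE 0.127), and at 244 to 338 in CD males and 244, 286 and 409.95 (lowest, median and highest) in KD males, with 0.07 (SE 0.115).

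**Figure D3:**
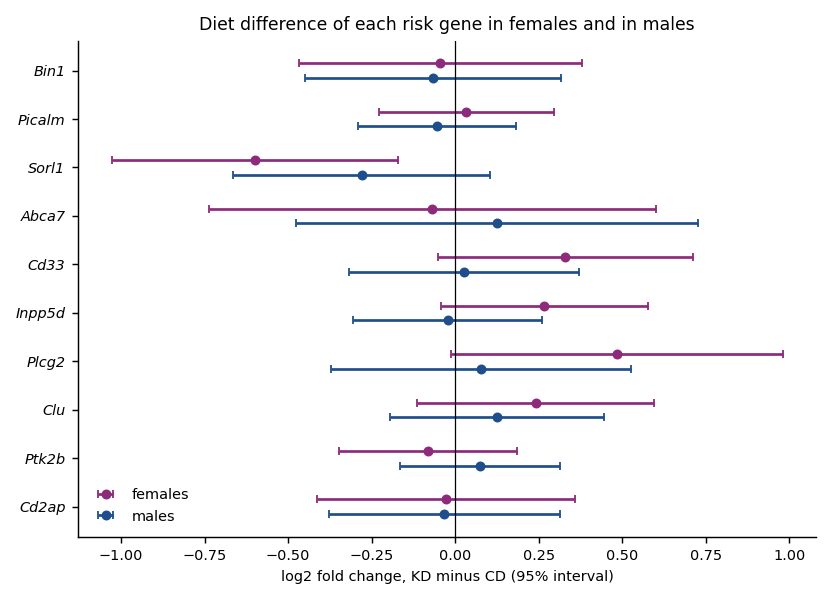
Log2 fold change of KD over CD for each risk gene in females and in males, with 95% intervals from the edgeR fit. In females the interval of Sorl1, −1.03 to −0.17, lies below 0, and that of Plcg2 runs from −0.01 to 0.98.

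The 3 genes found mainly in microglia were higher on average in KD females, without passing the threshold. Plcg2 was at 4.71 CPM in E62, 4.62 in E67, 4.35 in E228, 1.83 in E265 and 5.49 in E249 among CD females. It was at 8.77 CPM in E61, 6.12 in E68, 5.22 in E207 and 5.32 in E227 among KD females. All KD females were above 4 of the 5 CD females, and the overlap came from E249 alone. The log2 fold change of Plcg2 was 0.48 (SE 0.237, 95% interval −0.01 to 0.98, FDR 0.457 in edgeR). Inpp5d was at 14.1, 15.7, 12.8, 8.74 and 12.5 CPM in CD females E62, E67, E228, E265 and E249, and at 20.2, 15.2, 15.4 and 14.5 CPM in KD females E61, E68, E207 and E227. Here E67 lay within the KD range, and the log2 fold change was 0.27 (SE 0.148, FDR 0.535 in edgeR). Cd33 was at 3.24, 3.81, 3.11, 3.34 and 5.41 CPM in the same CD females and at 4.74, 5.51, 5.52 and 4.13 CPM in the same KD females, so that again only E249 among CD mice reached the KD range. Its log2 fold change was 0.33 (SE 0.183, FDR 0.535 in edgeR).

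In males none of these differed between diets by as much. Plcg2 was at 2.64 to 5.12 CPM on CD and at 2.77, 4.30 and 6.91 CPM on KD (lowest, median and highest), with a log2 fold change of 0.08 (SE 0.215). Inpp5d was at 9.16 to 17.1 CPM on CD and at 8.80, 12.6 and 15.8 on KD (log2 fold change −0.02, SE 0.135), and Cd33 at 2.89 to 4.31 on CD and 3.25, 3.68 and 4.42 on KD (0.03, SE 0.165). The diet effect in females minus that in males was 0.41 (SE 0.320) for Plcg2, 0.29 (SE 0.201) for Inpp5d and 0.30 (SE 0.247) for Cd33, each with an FDR of 0.9999 in edgeR. Of all genes, 2.14% had an unadjusted p under 0.05 in this test of the difference between sexes and 0% were called, and 0 of the 10 reached either. Averaged over both sexes the log2 fold change was 0.28 (SE 0.160) for Plcg2 and 0.18 (SE 0.123) for Cd33.

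A list of 17 other microglial markers, among them Ctss (113 CPM), went with these genes. In females 17 of 17 had a positive fold change, 6 with an unadjusted p under 0.05 and 0 called, and their median log2 fold change was 0.36. Their summed level was 499.6 to 706 CPM in CD females and 650.3 to 945 CPM in KD females, and none was at 0. Markers of other cells were higher in KD females as well, 18 of 18 for striatal spiny neurons (median log2 fold change 1.83), 8 of 8 for oligodendrocyte precursors (0.29), 12 of 14 for oligodendrocytes (0.20), 11 of 14 for astrocytes (0.18) and 12 of 14 for endothelium (0.12), each with 0 called. In KD males 15 of 17 microglial markers (0.10) and 18 of 18 striatal markers (1.13) were higher, and only E59 of these mice had a high striatal score. Lower in KD males were 12 of 14 cortical excitatory neuron markers (−0.15) and 14 of 14 oligodendrocyte markers (−0.41), again with 0 called in each list. KD females E61, E68 and E207, which had high striatal scores, held the highest Cd33 levels of their group, and E61 the highest Plcg2 and Inpp5d levels. With the striatal score as a covariate the log2 fold change in females was 0.38 for Plcg2 (SE 0.276), 0.11 for Inpp5d (SE 0.164) and 0.09 for Cd33 (SE 0.190). This score overlapped with diet in females, as described for Sorl1. With the microglia score as a covariate the log2 fold change in females was −0.11 for Plcg2 (SE 0.246), −0.07 for Inpp5d (SE 0.173) and 0.11 for Cd33 (SE 0.235). Without E249, Plcg2 passed the thresholds in females (log2 fold change 0.66, FDR 0.0994). Without both E249 and E227, libraries that stood apart from their groups on a marker score, Plcg2 (0.65, FDR 0.0955) and Sorl1 (−0.83, FDR 0.0019) passed and Cd33 had an FDR of 0.0367 below the 1.5-fold limit (0.56), in a fit that called 12.2% of all genes in females. Without E228 and E59 in addition, Plcg2 was at 0.83 (FDR 0.0434) and Sorl1 at −0.71 (FDR 0.00518), with 11.5% of genes called. Both joint exclusions were added after the data had been seen. They leave out E249, the only CD female within the KD range of Plcg2 and Cd33 and below that of Sorl1. The passes without it are therefore not support for a diet difference. In males 3.56% of genes had an unadjusted p under 0.05 and 0% were called, and 0 of the 10 genes reached either under the main settings. The CPM of the diet groups did not overlap for 2.1% of genes in females and 0.217% in males, and for 0 of the 10 genes in either sex.

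Between sexes, averaged over both diets, Cd2ap had the smallest p, with a higher level in females and a log2 fold change of 0.32 (SE 0.123, FDR 0.271 in edgeR). It was at 38.4 to 91.9 CPM in the 9 females and at 29.1 to 57.7 CPM in the 11 males. Plcg2 (0.33, SE 0.161), Inpp5d (0.21, SE 0.1004) and Cd33 (0.22, SE 0.124) were also higher on average in females, each with an unadjusted p above 0.05. Of all genes, 13.6% had an unadjusted p under 0.05 between sexes and 0.134% were called. All 17 microglial markers had a positive fold change in females over males, and 1 of them, Gpr34, was called. Library series also differed for several of the genes. Cd2ap was higher in series 2 (log2 fold change 0.57, SE 0.124), and Plcg2 (−0.43), Bin1 (−0.39), Clu (−0.39), Inpp5d (−0.33) and Ptk2b (−0.28) were lower. These 6 had an unadjusted p under 0.05, as did 37.9% of all genes. All 6 also passed the FDR threshold in edgeR, from 0.0034 for Cd2ap to 0.0578 for Plcg2, but lay below the 1.5-fold limit. For that reason 0 of the 10 were called, against 7.24% of all genes. The series was a term of the fit.

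Several of the genes shifted in the same libraries, and no correlation between them was tested. In E249 and E265, CD females of series 2, Bin1, Abca7 and Clu had their lowest levels of the 20 libraries, while Cd2ap had its 2 highest levels and Picalm was high in both. KD male E64 showed the reverse, with the lowest Picalm and Cd2ap levels and the highest Clu level. Cd33, Inpp5d and Plcg2 were each high in the KD females E61 and E68, and Inpp5d and Plcg2 were low in CD male E251 and CD female E265. In CD female E249 the 3 differed. Cd33 was 1.70 SDs above its mean, Plcg2 0.62 above and Inpp5d at −0.21.

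**Figure D4:**
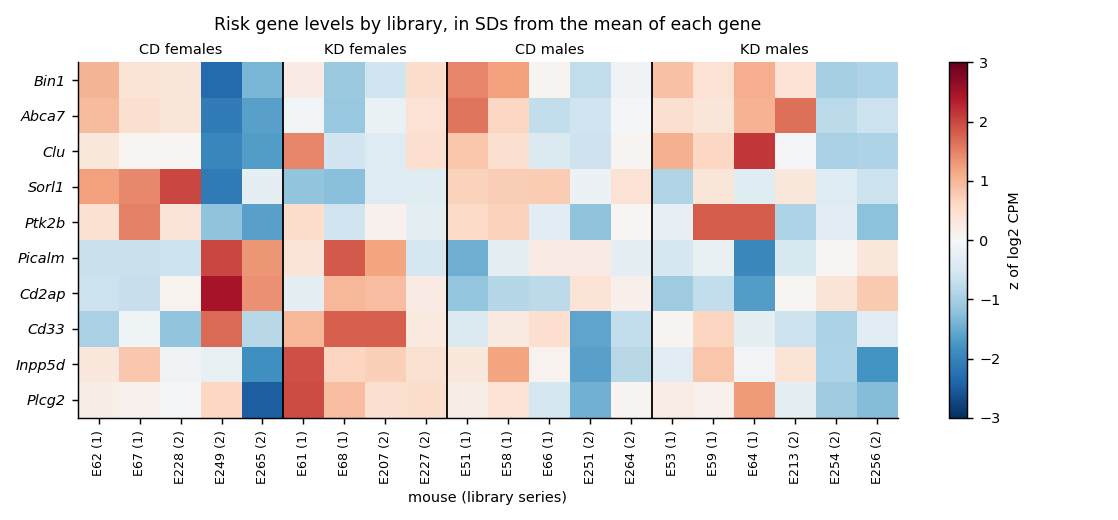
Log2 CPM of each risk gene in each library, as SDs from the mean of the gene over the 20 libraries (red above, blue below). Libraries are grouped by diet and sex, with the library series in brackets. Bin1, Abca7 and Clu were lowest, and Cd2ap highest, in CD female E249.

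The levels were set against scores of 6 cell types, each the mean z-score of its markers' log2 CPM in a library. The astrocyte list included Slc1a2, the oligodendrocyte list Mbp, and the endothelial list Slco1a4 and Abcb1a, with no marker of these lists at 0. Of 60 relations, 16 had a Benjamini-Hochberg adjusted p under 0.05 in permutation tests of Pearson's r over the 20 libraries. With the microglia score, r was 0.87 for Plcg2 (rho 0.79), 0.85 for Inpp5d (rho 0.79) and 0.72 for Cd33 (rho 0.74), with permutation p = 1e-05 for the first 2, the smallest the 100000 resamples can give, and 0.00029 for Cd33. The adjusted p were 0.0003, 0.0003 and 0.00218. Without the 2 libraries farthest from the median score, r was 0.79, 0.77 and 0.72. Within series 1 it was 0.79, 0.68 and 0.73, and within series 2 it was 0.88, 0.90 and 0.74. Plcg2 also went with the astrocyte score (r = 0.79, rho 0.80, permutation p = 6e-05, adjusted 0.00105, and 0.71 without the 2 farthest, with 0.88 and 0.80 within the series) and the endothelial score (r = 0.70, rho 0.62, permutation p = 0.00075, adjusted 0.005, and 0.53 without the 2 farthest, with 0.83 and 0.64 within the series). Clu, which astrocytes make, had r = 0.59 with the astrocyte score (rho 0.55, permutation p = 0.00614, adjusted 0.0246), but this rested on 2 libraries, without which r was 0.27. Within series 1 and 2 it was 0.58 and 0.45. Inpp5d had r = 0.61 with the endothelial score (rho 0.40, permutation p = 0.00463, adjusted 0.0232), and without the 2 farthest libraries r was 0.31, so this relation rested on them as well. Within series 1 and 2 it was 0.68 and 0.59. The oligodendrocyte score had 0 of the 16.

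The other 9 relations were with the scores of cortical excitatory neurons and striatal spiny neurons, on which the libraries fell into separate clusters. On the cortical score E249, E61, E68 and E207 were between −1.38 and −0.96 and the other 16 between −0.08 and 0.71. On the striatal score E61, E68, E207 and E59 were between 1.41 and 2.02 and the other 16 between −0.85 and 0.57. A pooled r is therefore not given for them, and the relation was computed within the 16. With the cortical score r was then 0.68 for Bin1 (rho 0.56, permutation p = 0.00411, adjusted over 20 relations 0.0411), 0.63 for Abca7 (rho 0.62, permutation p = 0.00876, adjusted 0.0584), 0.51 for Sorl1 (rho 0.57, permutation p = 0.0424, adjusted 0.141) and −0.48 for Picalm (rho −0.63, permutation p = 0.058, adjusted 0.141). Without the 2 libraries farthest from the median, r was 0.51 for Bin1 and 0.50 for Sorl1. Within series 1 and series 2 it was 0.36 and 0.74 for Bin1, and 0.34 and 0.62 for Sorl1. With the striatal score Cd33 had r = 0.74 (rho 0.57, permutation p = 0.00151, adjusted 0.0302), with 0.43 without the 2 farthest libraries, one of them E249, and 0.57 and 0.80 within the series. Inpp5d had r = 0.55 with the striatal score (rho 0.71, permutation p = 0.0245, adjusted 0.123, and 0.76 without the 2 farthest, with 0.73 and 0.49 within the series), and Plcg2 had r = 0.50 (rho 0.57, permutation p = 0.0484, adjusted 0.141, and 0.55 without the 2 farthest, with −0.13 and 0.67 within the series). Thus 2 of these 20 relations passed after adjustment.

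**Figure D5:**
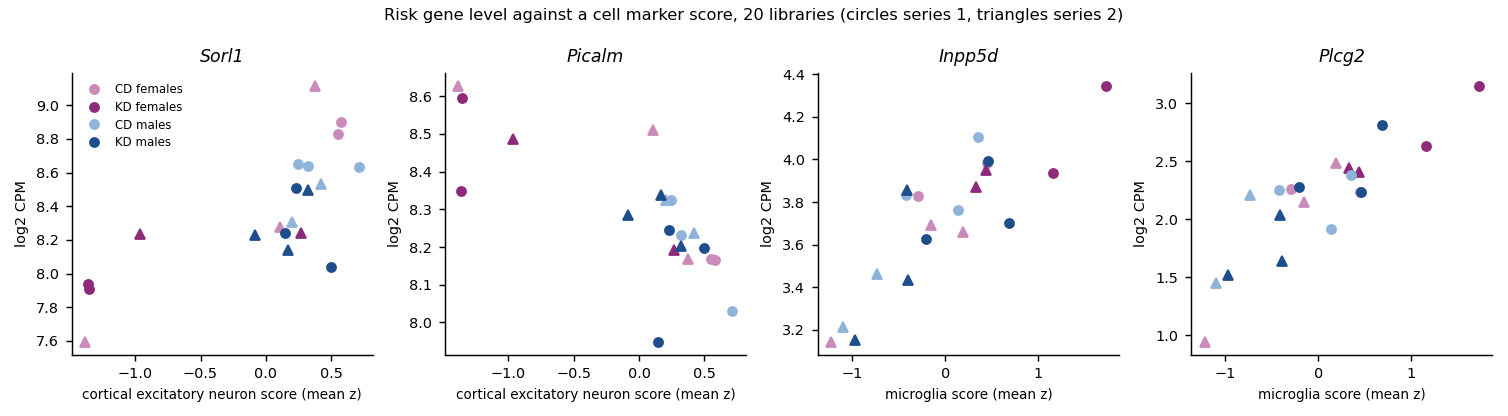
Log2 CPM of Sorl1 and Picalm against the cortical excitatory neuron score, and of Inpp5d and Plcg2 against the microglia score, 1 point per library. On the cortical score 4 libraries lie apart, between −1.38 and −0.96, and Inpp5d and Plcg2 increase along the microglia score (r = 0.85 and 0.87).

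Genes with the most similar pattern were sought among all tested genes, as the highest Pearson's r of log2 CPM over the 20 libraries after group and series had been taken out, a description with no test. They were Rab6b (r = 0.95), Rph3a (0.95) and Pi4ka (0.94) for Sorl1, Nudt3 (0.99), Adap1 (0.98) and Plekhm2 (0.98) for Bin1, and Zfp709 (0.99), Ascc3 (0.96) and Ndufaf4 (0.96) for Picalm. For Cd2ap they were Hbp1 (0.98), Ercc6l2 (0.97) and Kdm4c (0.97), and for Ptk2b Arf3 (0.95), Mink1 (0.94) and Baiap2 (0.93). For Abca7 they were Map4k2 (0.98), Plekhg5 (0.97) and Pmvk (0.96). Clu was most like Fgfr3 (0.98), a receptor on the astrocyte marker list, followed by Gnai2 (0.96) and Rps18 (0.96). The values of the microglial genes were lower, with Atp2a3 (0.91), Limd1 (0.91) and Gsdmd (0.90) for Plcg2, Lag3 (0.86), S100b (0.86) and Npc2 (0.86) for Inpp5d, and Snapin (0.91), Ptgr2 (0.87) and Plekha2 (0.86) for Cd33.

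Other genes at Alzheimer risk loci, and the pathways in which the 10 act, were examined in the same fit. Of 77 other risk locus genes tested, 0 were called in either sex. At an unadjusted p under 0.05, 5 were higher and 6 lower on KD in females, whereas 2 were higher and 1 lower in males. Over all genes tested, 5.86% were higher and 5.5% lower at this p in females, and 2.37% and 1.19% in males, and the counts of this list and of the pathway lists below are to be read against these shares. The smallest p in females was that of Blnk, an adaptor that couples receptors to phospholipase C gamma, at 5.96 to 8.76 CPM on CD and 3.30 to 5.86 CPM on KD (log2 fold change −0.86, FDR 0.202). In males it was that of Ace, at 8.14 to 16.3 CPM on CD and 10.2 to 49.5 on KD (0.78, FDR 0.9998). Of 38 genes of clathrin-mediated endocytosis, 6 had an unadjusted p under 0.05 in females, 1 of them higher and 5 lower on KD. The 1 that was higher, Sh3gl3 (endophilin A3), was at 28.6 to 34.3 CPM on CD and 43.2 to 53.3 CPM on KD with no overlap. It passed the FDR threshold in females (log2 fold change 0.57, SE 0.0877, FDR 0.0269) but lay just below the 1.5-fold limit, and in males it was at 31.4 to 36.5 CPM on CD and 35.3 to 43.6 on KD (0.21, FDR 0.9998).

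In each of the other pathway lists 0 genes were called between diets. Of 28 genes of TREM2-SYK-PLCG2 and SHIP1 signalling, 4 were higher and 2 lower in females by an unadjusted p of 0.05, with 0 in males. Blnk had the smallest p in females and Rac2 in males (log2 fold change 0.38, FDR 0.9998), the latter at 0.517 to 0.997 CPM on CD and 0.744 to 1.30 CPM on KD. Of 28 genes of PYK2 and focal adhesion signalling 4 were lower in females and 0 in males, with Ptk2, the focal adhesion kinase most related to Ptk2b, at 225 to 287 CPM on CD and 148 to 261 on KD in females (−0.52, FDR 0.190) and Arhgap26 the first in males (−0.23). Of 21 genes of the retromer and sorting receptors, to which Sorl1 is related, 0 reached an unadjusted p of 0.05 in either sex, and Sorcs2 had the smallest p in females (0.48) and males (0.44). In males Sorcs2 was at 19.8 to 34.5 CPM on CD and at 19.1, 25.9 and 63.2 CPM (lowest, median and highest) on KD. Its KD median lay within the CD range. Of 15 partners of CD2AP, 1 was higher and 1 lower in females and 1 lower in males, led by Sh3kbp1 in females (0.50, FDR 0.303) and Pik3r1 in males (−0.27). Of 21 genes of Siglec and ITIM receptor signalling, 1 was lower in females, St3gal5 (−0.37, FDR 0.284), and 0 in males, where Cd22 was first (−0.74, FDR 0.9998). Cd22 was also low in males, at 0.230 to 0.967 CPM on CD and 0.179 to 0.609 CPM on KD. Of 14 relatives of ABCA7 and regulators of lipid transport, 1 was higher in females, Abcg1 (0.23), and 2 in males, led by Abca8b (0.28). Of 13 clusterin receptors and extracellular chaperones, 1 was lower in females, the receptor Lrp8 (−0.38, FDR 0.194), and 0 in males, where C3 was first (−1.19, FDR 0.9998). C3 was low in males, at 0.126 to 3.43 CPM on CD and 0.135 to 1.63 CPM on KD.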

How the data were processed

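RNA from frozen cortex of 20 mice was sequenced as 50-bp read pairs. Reads were aligned by the authors with STAR to mm10, and they deposited raw counts per gene, 1 library per mouse. Versions, annotation and counting strand are not given in the sources used here. The study's RUVg step, whose factors are not given, was run only as an alternative. Groups came from the labels, where SD is the study's CD.

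CPM and log2 CPM (prior count 2) were computed from the counts. The 10 genes were tested in R 4.3.3 with edgeR 4.0.16 (quasi-likelihood, robust, upper-quartile normalization) on all 20 libraries with 4 groups and library series as terms, over the 15660 genes that passed filterByExpr, with Benjamini-Hochberg adjustment. Calls required FDR 0.1 and a 1.5-fold change. Exact permutation tests were two-sided, and relations used 100000 resamples. Intervals are 95%. Level per kb used the union of GENCODE basic exons, and 21777 of the 23413 gene names matched GENCODE M21. Promoters for Clu and Ptk2b were not used here, nor was that of Bin1. The members and lists were chosen with earlier results of these data known. The genes named were the 10, the 3 most alike of each, of each list the called gene or else that of smallest p in each sex, the 2 most abundant markers and the label checks, and some of these markers are not reported here. In the averaged, interaction and sex comparisons the 4 members of smallest p were followed one by one, and the relations within clusters were added after the data were seen. So were the cortical score as a covariate and the joint exclusions of several libraries. On simulated counts with 200 genes changed in females, 64% of those changed 2-fold and 90% of those changed 3-fold were recovered. Other normalizations, filters, tests, covariates, single series and leaving out each mouse, and DESeq2 1.42.0, were tried as alternatives. P-values measure the spread between mice.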

Additional observations from a re-analysis of the deposited data

Results flagged for a closer look

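In 64 groups of values (the CPM of each of the 10 genes and 6 marker scores, in each of the 4 groups of mice), 4 had a mouse far from the others of its group. Chance flags about 1 in 20 groups, or 3.2 here. Inpp5d in KD female E61 was at 20.2 CPM against 14.5 to 15.4 CPM in the other KD females, a gap of 0.851 of the range of the group. The cortical excitatory neuron score of CD female E249 was −1.38 against 0.10 to 0.58 in the other CD females (0.758 of the range). The striatal spiny neuron score of KD female E227 was −0.47 against 1.41 to 1.70 (0.866 of the range), and that of KD male E59 was 2.02 against −0.81 to −0.50 (0.891 of the range).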

How the results depend on the processing

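No member was called under any comparison in the chosen settings, and counts differed under a few alternatives. In females 1 member (Sorl1, −0.98) passed in library series 1 alone, 2 (Sorl1 and Plcg2) without E249, 2 with both E227 and E249 left out and 2 with E227, E249, E228 and E59 left out, so leaving out each mouse in turn gave 0 to 2. The 2 joint exclusions were added after the data had been seen. Averaged over both sexes 1 (Sorl1, −0.70) passed in series 1 alone. Leaving out each mouse gave 0 for the other comparisons. The relations past adjusted p numbered 2 in series 1 alone and 2 in series 2 alone, against 16, with 10 libraries each. In the exact permutation tests 1 of 20 had p under 0.05 on either scale, and with upper-quartile scaling the female difference of Bin1 was −0.0181 and of Ptk2b −0.0672. No paired analysis was possible because no replicate number is shared between groups. Low counts limit Plcg2 and Cd33, and the cause of these changes was not tested.

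Some differences changed sign, most of them near 0, but also those of Plcg2 (0.48) and Inpp5d (0.27) in females, of Plcg2 averaged over the sexes (0.28) of Plcg2 (0.41) and Sorl1 (−0.32) in the interaction, and of Plcg2 (0.33) and Inpp5d (0.21) between sexes, once a marker score was a covariate. In females, Bin1 was 0.0376, 0.17, 0.40 and 0.32 with the microglia score, the striatal score and the cortical excitatory score as covariate and in series 2 alone. Abca7 was 0.0352, 0.20, 0.59 and 0.50 under the same settings. Picalm was −0.11, −0.18 and −0.17 with the striatal and the cortical score and in series 2 alone, and Ptk2b was 0.0156 with the cortical score and 0.10 in series 2. With the microglia score Inpp5d was −0.0708 and Plcg2 −0.11. Cd2ap was 0.0683 with RUVg, 0.39 in series 1 alone, 0.25 without E227 and E249 and 0.17 without the 4 libraries. In males, Bin1 was 0.0134 with the cortical score, Picalm 0.0047 in series 2 and Abca7 −0.0468 in series 1. Cd33 was −0.0328, −0.0097 and −0.0152 with the microglia, striatal and cortical scores, −0.0397 in series 1 and −0.0178 without the 4 libraries. In series 2 alone Inpp5d was 0.17, Plcg2 −0.13, Clu −0.14, Ptk2b −0.0563 and Cd2ap 0.0695. Plcg2 was −0.11 with the microglia score, and Cd2ap 0.0426 without the series term and 0.0057 with RUVg. With the microglia score Plcg2 was −0.11 averaged over the sexes, −0.0033 in the interaction and −0.10 between sexes, and Inpp5d −0.0159 between sexes. With the cortical score the interaction of Sorl1 was 0.0688.

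Leaving out each mouse, the log2 fold change in females ranged from −0.26 to 0.12 for Bin1, −0.0708 to 0.13 for Picalm, −0.28 to 0.12 for Abca7 and −0.23 to 0.13 for Cd2ap. In males it ranged from −0.10 to 0.0011 for Picalm, −0.10 to 0.31 for Abca7, −0.0406 to 0.0983 for Cd33, −0.10 to 0.0524 for Inpp5d, −0.0446 to 0.21 for Plcg2 and −0.0826 to 0.0299 for Cd2ap.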
